A study of Mus musculus with 6 samples.

Results

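The genes that copy DNA were examined in multipotent progenitors of mouse bone marrow: 43 genes named by their role, comprising the MCM helicase and its loading factors, the GINS complex, the origin recognition complex (ORC), PCNA and its loader RFC, the replicative polymerases and primase, the single-strand binding protein RPA, the nucleases and ligases of lagging-strand joining, and enzymes of deoxynucleotide synthesis. All 43 had an array feature of their own, out of 19938 genes so measured and 23410 features tested. Where a gene had more than 1 feature (Pcna and Rpa3), the brighter one stands for it. The members were chosen by role, at a time when earlier results of these data were known.

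RNA came from progenitors sorted as lineage-negative, Sca1 and c-Kit positive cells that carried CD34 and the receptor the series text spells Flt2. They were taken from wild-type (WT) C57BL/6 mice with an intact latexin gene and from C57BL/6 mice with exons 2 to 4 of latexin (Lxn, a carboxypeptidase inhibitor) deleted, labelled Lxn-/-. Each of the 3 arrays per group held RNA of about 100000 cells pooled from 10 to 20 mice of 8 to 12 weeks, labelled female, with no treatment. The labels name no Cre, and the series text speaks of long-term stem cells where the samples are labelled as multipotent progenitors.

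DNA replication begins when ORC, with Cdc6 and Cdt1, loads the MCM hexamer onto origins in G1 phase. Cdc45 and GINS then turn that hexamer into an active helicase, polymerase alpha and primase lay down primers, and polymerases epsilon and delta extend them behind the PCNA clamp. Many of these genes are textbook targets of E2F transcription factors and are transcribed as cells pass from G1 into S phase, so their RNA is widely read as a sign of how much a population is cycling. Multipotent progenitors cycle far more than long-term stem cells do.

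E2F cores were common in the promoters of these genes, and 4 are shown because they belong to the genes with an E2F core whose values separated the groups best. The core was searched as TTTCCCGC, TTTGGCGC, TTTCGCGC or TTTGCCGC on both strands, in RefSeq promoters running from 250 bases before to 50 after each gene's start (build GRCm38.p6). The windows below run 5′ to 3′ on the gene's strand from 70 bases before the start to 30 after it, with the core in capitals. They lie at chr8:95633489-95633588 (Gins3, plus strand), chr4:108579384-108579483 (Orc1, plus strand), chr12:69228161-69228260 (Pole2, minus strand) and chr7:100121473-100121572 (Pold3, minus strand).
Gins3: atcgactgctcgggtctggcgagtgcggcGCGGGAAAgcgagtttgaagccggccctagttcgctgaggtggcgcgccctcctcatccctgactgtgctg
Orc1: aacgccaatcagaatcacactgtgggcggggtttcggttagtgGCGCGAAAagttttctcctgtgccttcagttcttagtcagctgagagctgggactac
Pole2: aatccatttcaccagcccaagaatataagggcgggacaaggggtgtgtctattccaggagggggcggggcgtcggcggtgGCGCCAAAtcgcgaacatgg
Pold3: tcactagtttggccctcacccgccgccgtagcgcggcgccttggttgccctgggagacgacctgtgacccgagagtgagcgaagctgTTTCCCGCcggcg

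A RefSeq promoter was matched for 36 of the 43 genes. Of these, 15 (41.7%) held an E2F core, against 2.6% of all 27025 genes in the promoter table and 3.48% of the 15563 genes that also had an array feature. The core began 41 bases before the start in Gins3 and 27 before it in Orc1. In Mcm6 there were 3 cores, of which the pair beginning 110 and 106 bases before the start overlapped each other. The CCAAT box, which binds NF-Y, was present in 23 of the 36 genes (63.9%), against 41.1% of all genes in the table, and 1 of them, in Mcm7, overlapped an E2F core. A match is a run of letters and not a measured binding site. Genes with an E2F core had a median log2 change of 0.21 between the groups, and the 21 matched genes without one had a median of 0.19. At an unadjusted p under 0.05 in limma there were 4 of the 15 with a core and 8 of the 21 without, all higher. Of all tested features 5.06% were higher at that mark, and 8.75% of those in the level range of the replication genes. The difference between genes with and without a core was not tested.

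**Figure D1:**
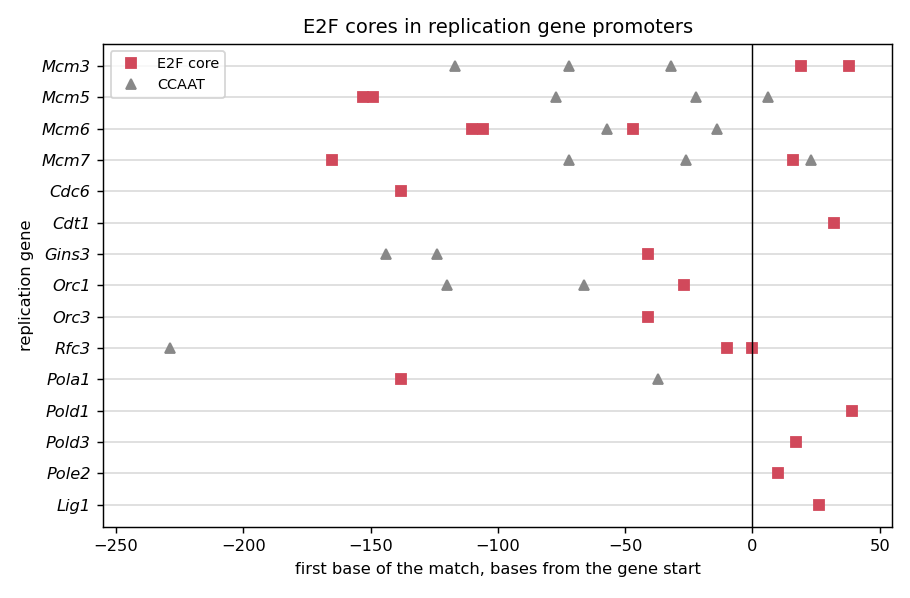
Positions of E2F cores (squares) and CCAAT boxes (triangles) in the promoters of the 15 replication genes with an E2F core, as the first base of each match in bases from the gene start (vertical line). Mcm6 carries 3 cores, and those of Gins3 and Orc1 begin 41 and 27 bases before the start.

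Values are log2 expression values, and differences are arrays labelled Lxn-/- minus WT, with the standard error (SE) from limma. Features differ in brightness for reasons other than RNA amount, so a level of one gene does not measure it against another. The arrays are few, and their number limits the precision of every value. More cycling cells and more RNA per cycling cell cannot be told apart in pooled RNA.

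The labels were checked first. Lxn read 8.56, 8.70 and 8.58 in the WT arrays and 8.03, 8.53 and 8.61 in Lxn-/- arrays 1, 2 and 3, which overlap, and which exons its feature covers was not stated. Lxn-/- arrays 1 and 3 went against the label of female: Eif2s3y, a Y-linked gene, read 8.57 and 9.36 there, and at most 3.97 in the other 4 arrays. Xist, Kdm5d and Uty split the arrays in the same way, with Xist at 6.86 and 5.85 in those arrays and at least 13.13 elsewhere. Results on the replication genes are therefore also given for Lxn-/- array 2 alone against the WT arrays. As a rough check of the sort, the features of Kit, Flt3 and Cd34 were brighter than 96.9%, 98.3% and 99.3% of features in WT, and Ly6a had no feature of its own. The same share ran from 14.0% (Cd3d) to 58.9% (Cd4) over the 4 T cell genes, from 15.6% (Ms4a1) to 35.7% (Pax5) over the 3 measured B cell genes and from 66.4% (Ly6g) to 95.2% (Ngp) over the 6 granulocyte genes. It ran from 42.8% (Fcer1a) to 92.2% (Prss34) over the mast cell and basophil genes and from 35.1% (Mrc1) to 78.5% (Itgam) over the monocyte and macrophage genes. For the megakaryocyte genes it was 47.5% (Pf4) to 72.9% (Gp9), and for the erythroid genes 47.1% (Epor) to 51.3% (Slc4a1). Their part in the results was not tested.

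All 43 replication genes had a higher mean in the arrays labelled Lxn-/- in the deposited values, as did 42.2% of all tested features, and none passed the adjusted threshold of 0.05 in limma. After the arrays were quantile-normalized again 35 of the 43 were higher, against 11016 of all 23410 features. After cyclic loess normalization 37 were, against 11613 of all features. Counts of higher genes after quantile normalization that are given below for single complexes and other lists have the same 11016 as their background. The changes ran from 0.00 for Pold1 to 0.62 for Rpa3, with a median of 0.19, which is a small shift. The smallest adjusted p among the members was 0.340, the smallest of any of the 23410 features. At an unadjusted p under 0.05 there were 14 members, all of them higher, which is 32.6% of the list. The same mark was reached by 5.06% of all tested features as higher and by 9.23% as lower, a split that turns with the scaling: 1185 of 3346 features at that mark were higher in the deposited values and 2190 of 3129 once arrays were centred on their medians. The groups did not overlap in 21 members (48.8%), again all higher, against 8.54% of all features.

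These shares have to be read against features of like brightness, because the whole profile tilted with level. The median change was -0.04 over all features, but with features split by mean level into 10 bands of equal number it was between -0.15 and -0.11 in each of the 5 lowest bands and between 0.07 and 0.09 in each of the 4 highest. No replication gene lay in the 5 lowest bands, and 51.1% of features were dimmer than the dimmest of them, Orc1. Among the 11134 features in the level range of the replication genes, 69.8% had a higher mean, 8.75% were higher and 2.85% lower at an unadjusted p under 0.05, and 16.0% were higher with no overlap between groups. Their median change was 0.07, against 0.19 for the replication genes. Cyclic loess, which removes such tilts, took the median of the replication genes to 0.10 and the number at an unadjusted p under 0.05 to 6. In that fit 951 of all 23410 features were higher at that mark, and the median change of all features was -0.0. The 0.07 of features in the same level range is from the deposited values. It was not taken after cyclic loess, so the 0.10 cannot be set against it.

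**Figure D2:**
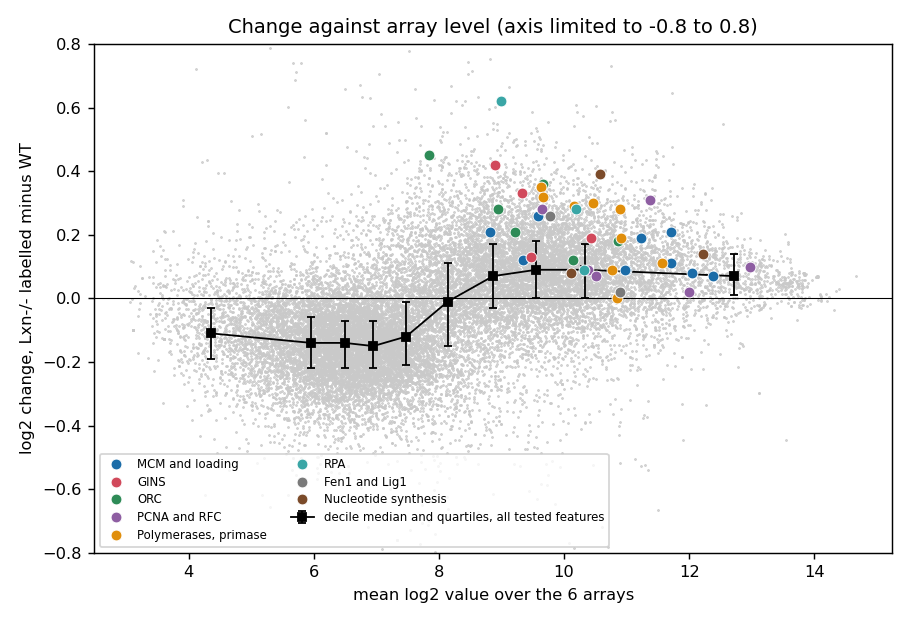
Log2 change (arrays labelled Lxn-/- minus WT) against mean log2 value over the 6 arrays, for all tested features (grey; points beyond 0.8 in either direction are not drawn), for the median and quartiles of each of the 10 bands of level (black squares, at the middle of its range) and for the 43 replication genes (coloured by complex). The black line lies below 0 in the 5 lowest bands and at 0.07 to 0.09 in the 4 highest, and most coloured points lie above it.

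Within the list, the dimmer features had the larger changes. Across the 43 genes Pearson's r between change and mean level was -0.59 and Spearman's rho -0.55. This is a description across genes, which share the same 6 arrays and are not independent. The 17 members in the highest band of level had a median change of 0.11, the 11 of the band below it 0.12, and the 9 of the next band 0.28.

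One array of each group set much of the size of the shift. WT array 2 was the lowest of all 6 arrays in 29 of the 43 genes, as it was in 26.8% of features of the same level range. Lxn-/- array 1 was the highest in 35 of the 43, as it was in 23.7% of those features. Relative to the WT mean, the median of the 43 genes was 0.06, -0.08 and 0.03 in the WT arrays and 0.30, 0.12 and 0.11 in Lxn-/- arrays 1, 2 and 3. The corresponding medians over features of the same level range were 0.03, 0.09 and 0.09 in the 3 Lxn-/- arrays, so that Lxn-/- array 1 was the highest of the 3 on the replication genes and the lowest of the 3 on features of like brightness.

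With both of those arrays left out, 33 of the 43 genes were higher, at a median of 0.09. Of these, 4 were higher at an unadjusted p under 0.05 in limma (Gins3, Rfc4, Rpa3 and Rrm2). In that fit 11181 of all 23410 features had a higher mean and 1220 were higher at that mark. With Lxn-/- array 2 alone against the WT arrays, 34 were higher at a median of 0.12, against 10735 of all features. Features of the same level range were not counted apart in these fits. Their median relative to the mean of all WT arrays was 0.09 in Lxn-/- array 2 and 0.09 in array 3, near the medians of the replication genes here. Without WT array 2 alone 7 members were higher at an unadjusted p under 0.05 in limma, in place of 14. There were 8 without Lxn-/- array 1 and 8 without Lxn-/- array 3. Over all features 593, 1478 and 689 were higher at that mark, in the same order, in place of 1185.

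Markers of other cells and of stress also moved with these arrays. The mean log2 value of the 9 measured stress genes was 10.81, 11.08 and 10.65 in the WT arrays and 11.45, 10.59 and 11.71 in the Lxn-/- arrays, highest in the same arrays 1 and 3 that carried Y-linked signal. That of the 4 mast cell and basophil genes was 8.47 in Lxn-/- array 1, 9.44 and 9.54 in arrays 2 and 3 and 9.71 to 9.92 in WT. Kit read 11.48 in Lxn-/- array 1 and 12.05 to 12.19 in the other 5. WT array 2 had the highest mean of the WT arrays for the 6 granulocyte genes (10.35, against 9.66 and 10.08), the 3 measured erythroid genes (8.08, against 7.61 and 7.60) and the 3 megakaryocyte genes (8.79, against 8.36 and 8.44). The 5 measured long-term stem cell genes averaged 8.04 in Lxn-/- array 1, 8.46 and 8.37 in arrays 2 and 3 and 8.45 to 8.66 in WT, and the 5 monocyte and macrophage genes 7.75 in Lxn-/- array 1 and 7.95 to 8.17 in the other 5. The 4 T cell genes averaged 7.08 to 7.39 and the 3 measured B cell genes 6.41 to 6.92 over the 6 arrays. For these too WT array 2 was the highest of the WT arrays. It averaged 7.34 for the T cell genes, against 7.11 and 7.21, and 6.92 for the B cell genes, against 6.41 and 6.54. The part of all these markers in the shift of the replication genes was not tested.

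**Figure D3:**
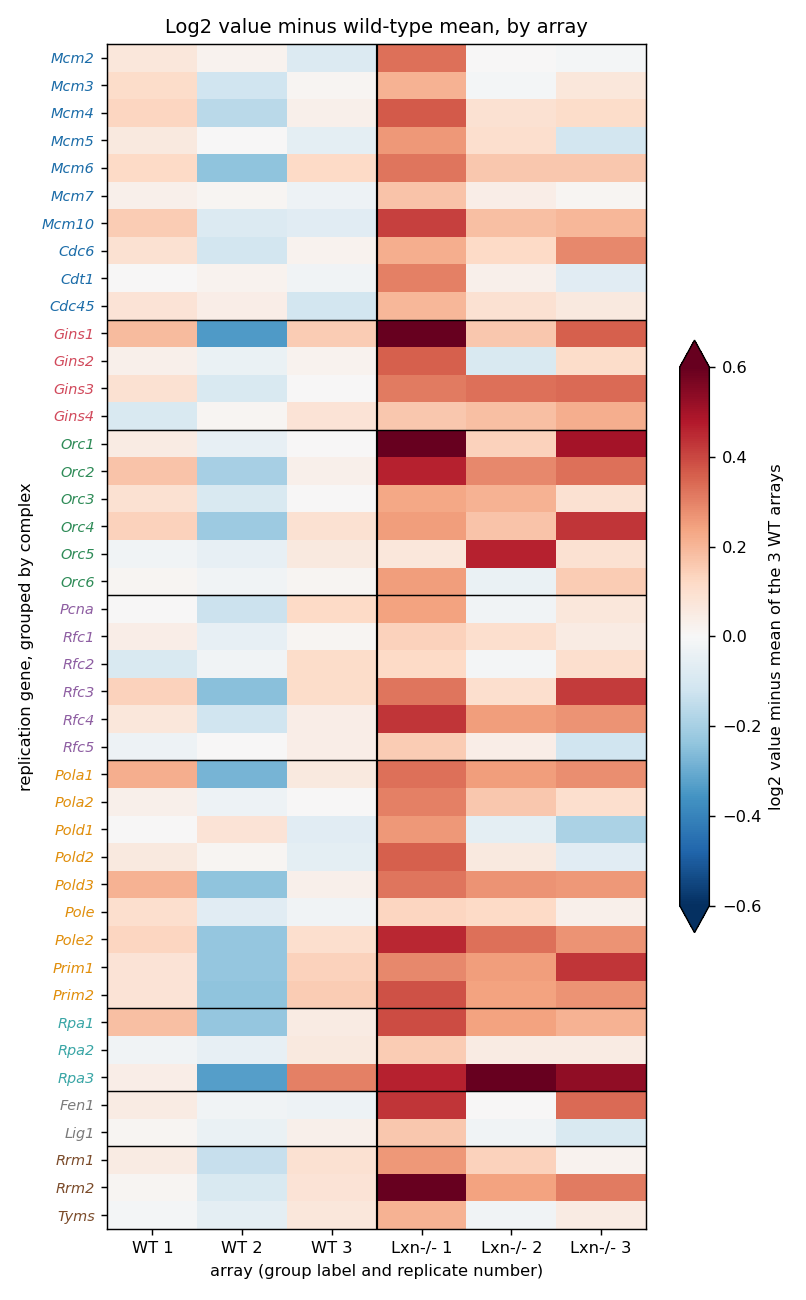
Log2 value minus the mean of the 3 WT arrays for each of the 43 replication genes (rows, grouped by complex) in each array (columns; the colour scale ends at 0.6 in either direction). WT array 2 is the bluest column, lowest of all 6 arrays in 29 genes, and Lxn-/- array 1 is the reddest column, highest in 35.

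The helicase and its loaders had a median change of 0.11 over 10 genes, all higher in the deposited values, and of 0.02 after quantile normalization, with 8 of 10 higher. Mcm2 to Mcm7, the 6 subunits of the ring that unwinds DNA, ran from 0.07 (Mcm7) to 0.21 (Mcm6) with SEs of 0.09 to 0.12, and none reached an unadjusted p under 0.05. Mcm5 read 12.07, 12.01 and 11.95 in WT and 12.27, 12.11 and 11.90 in the Lxn-/- arrays, so that Lxn-/- array 3 was the lowest of all 6. Its change of 0.08 (SE 0.11, adjusted p of 0.702 in limma) was smaller than the spread between replicates.

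Mcm10, which helps to fire loaded origins, was the member of this group with the smallest p. It read 9.60, 9.38 and 9.38 in WT and 9.87, 9.63 and 9.65 in the Lxn-/- arrays, a change of 0.26 (SE 0.11, adjusted p of 0.340). The groups did not overlap, although Lxn-/- array 2 lay only just above WT array 1. Cdc6, the loader ATPase, likewise did not overlap (8.72 ± 0.10 in WT and 8.93 ± 0.09 in the Lxn-/- arrays, SD, n = 3 each), with a change of 0.21 (SE 0.09). Its partner Cdt1 differed by 0.09 (SE 0.11) and Cdc45, which joins the helicase, by 0.12 (SE 0.09), and both overlapped between groups. The change of Cdt1 was -0.02 without Lxn-/- array 1.

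The GINS complex, which completes the active helicase, had a median change of 0.26 over its 4 subunits and 0.17 after quantile normalization, with all 4 higher under both. Gins3 was the most even gene of the whole list across the Lxn-/- arrays. It read 9.25, 9.07 and 9.16 in WT and 9.47, 9.49 and 9.50 in the Lxn-/- arrays, a change of 0.33 (SE 0.09) or 1.25-fold. The groups did not overlap, the change stayed between 0.28 and 0.37 with any 1 array left out, and it was 0.33 for Lxn-/- array 2 alone, but the adjusted p was 0.340.

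Gins1 had the larger change of 0.42 (SE 0.18, adjusted p of 0.344) and the wider spread. It read 8.89, 8.35 and 8.84 in WT and 9.43, 8.86 and 9.05 in the Lxn-/- arrays, so that Lxn-/- array 2 fell below WT array 1. The change was 0.09 once WT array 2 and Lxn-/- array 1 were both left out. Gins2 read 9.43, 9.36 and 9.42 in WT and 9.77, 9.32 and 9.52 in the Lxn-/- arrays, where array 2 was the lowest of all 6, and its change of 0.13 (SE 0.12) was not beyond the spread. Gins4 had a change of 0.19 (SE 0.09) without overlap. Differences between the subunits were not tested.

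ORC, which marks origins, had 5 of 6 members with no overlap and a median change of 0.24 (0.18 after quantile normalization, with all 6 higher under both). Of all tested features 8.54% were higher with no overlap, and 16.0% of those in the level range of the replication genes. Orc1, the ATPase subunit whose level is known to vary with the cell cycle, read 7.67, 7.57 and 7.62 in WT and 8.33, 7.76 and 8.12 in the Lxn-/- arrays. Its change of 0.45 (SE 0.14, adjusted p of 0.340) is 1.37-fold, and Lxn-/- array 2 lay nearest to WT. For that array alone the change was 0.14.

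Orc2 read 9.65, 9.28 and 9.51 in WT and 9.94, 9.77 and 9.81 in the Lxn-/- arrays, a change of 0.36 (SE 0.11, adjusted p of 0.340). All 3 Lxn-/- arrays of Orc2 were above all WT arrays. Orc4 read 8.93, 8.57 and 8.88 in WT and 9.05, 8.97 and 9.22 in the Lxn-/- arrays, a change of 0.28 (SE 0.12, adjusted p of 0.344), with a gap of only a few hundredths between WT array 1 and Lxn-/- array 2. Orc3 (0.18, SE 0.09) and Orc5 (0.21, SE 0.12) also did not overlap, and most of the change of Orc5 came from Lxn-/- array 2, at 9.57 against 9.18 and 9.20 in the other Lxn-/- arrays. Orc6, the subunit most loosely tied to the others, read 10.09, 10.06 and 10.09 in WT and 10.33, 10.05 and 10.23 in the Lxn-/- arrays, so that Lxn-/- array 2 was at the WT level (change 0.12, SE 0.10).

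PCNA, the sliding clamp, and its loader RFC had a median change of 0.10 (0.03 after quantile normalization, with 4 of 6 higher). Rfc4, a small loader subunit, was the member of this group with the smallest p. It read 11.29, 11.10 and 11.26 in WT and 11.65, 11.46 and 11.48 in the Lxn-/- arrays, a change of 0.31 (SE 0.10, adjusted p of 0.340), with no overlap and 0.25 for Lxn-/- array 2 alone. Rfc3 had a change of 0.28 (SE 0.13) with overlap. Rfc5 read 11.95, 11.98 and 12.02 in WT and 12.13, 12.02 and 11.86 in the Lxn-/- arrays, which straddle the WT values (change 0.02, SE 0.10, adjusted p of 0.915), and it was -0.06 after quantile normalization. Rfc2 changed sign in the same way, from 0.07 (SE 0.09) to -0.02. Rfc1, the large subunit, differed by 0.09 (SE 0.08).

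Pcna itself read 12.93, 12.80 and 13.05 in WT and 13.17, 12.91 and 13.00 in the Lxn-/- arrays, a change of 0.10 (SE 0.11), and arrays 2 and 3 lay within WT. A dimmer feature that the platform also assigns to Pcna read 12.94, 12.67 and 13.05 in WT and 13.17, 12.91 and 12.99 in the Lxn-/- arrays, a change of 0.14 (SE 0.12). It likewise overlapped between groups.

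Over the 9 polymerase and primase genes the median change was 0.28 (0.20 after quantile normalization, with 8 of 9 higher). Of the 9, 4 were at an unadjusted p under 0.05 in limma and 6 did not overlap, all higher. Of all tested features 5.06% were higher at that mark and 8.54% were higher with no overlap. In the level range of the replication genes these shares were 8.75% and 16.0%. Both primase subunits, which make the RNA primers, were among the polymerase and primase genes at that mark. Prim1 read 9.59, 9.27 and 9.65 in WT and 9.79, 9.75 and 9.93 in the Lxn-/- arrays, a change of 0.32 (SE 0.12, adjusted p of 0.340). Prim2 read 10.39, 10.07 and 10.46 in WT and 10.69, 10.55 and 10.58 in the Lxn-/- arrays, a change of 0.30 (SE 0.12, adjusted p of 0.340). In both genes WT array 2 was the lowest and all Lxn-/- arrays lay above WT. Pola1 (0.29, SE 0.13) and Pola2 (0.19, SE 0.09), the polymerase alpha subunits bound to primase, showed no overlap either.

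The other members at that mark were 1 subunit each of polymerases epsilon and delta. Pole2, the second subunit of epsilon, read 9.59, 9.23 and 9.55 in WT and 9.91, 9.79 and 9.73 in the Lxn-/- arrays, a change of 0.35 (SE 0.12, adjusted p of 0.340), while the catalytic Pole differed by 0.09 (SE 0.09). Pold3, an accessory subunit of delta, read 10.96, 10.51 and 10.78 in WT and 11.07, 11.03 and 11.02 in the Lxn-/- arrays, a change of 0.28 (SE 0.12, adjusted p of 0.342). All 3 Lxn-/- arrays of each were above WT. The catalytic Pold1 read 10.84, 10.92 and 10.77 in WT and 11.10, 10.78 and 10.65 in the Lxn-/- arrays, the highest and the lowest values both lying in the Lxn-/- group. Its change of 0.00 (SE 0.12) became -0.13 without Lxn-/- array 1 and -0.10 after quantile normalization. Pold2 differed by 0.11 (SE 0.12). Differences between these subunits were not tested.

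RPA, which coats single-stranded DNA, held the largest change of the list, and its median over 3 genes was 0.28 (0.20 after quantile normalization, with 2 of 3 higher). Rpa3, its smallest subunit, read 8.72, 8.35 and 8.98 in WT and 9.14, 9.55 and 9.21 in the Lxn-/- arrays, a change of 0.62 (SE 0.17, adjusted p of 0.340) or 1.54-fold. It was highest in Lxn-/- array 2, where the change alone was 0.87, and unlike most members it was not highest in array 1. A dimmer feature assigned to Rpa3 read 7.48 to 7.70 in WT and 7.50 to 7.69 in the Lxn-/- arrays and did not separate them, and the mean of both features had a change of 0.31. Rpa1 read 10.24, 9.82 and 10.11 in WT and 10.45, 10.30 and 10.27 in the Lxn-/- arrays, a change of 0.28 (SE 0.12, adjusted p of 0.344) with no overlap. Rpa2 read 10.26, 10.23 and 10.34 in WT and 10.43, 10.33 and 10.33 in the Lxn-/- arrays (change 0.09, SE 0.08), where arrays 2 and 3 lay within WT.

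Fen1, the nuclease that trims flaps between lagging-strand fragments, read 9.69, 9.63 and 9.61 in WT and 10.08, 9.65 and 9.98 in the Lxn-/- arrays. It was high in Lxn-/- arrays 1 and 3 and at the WT level in array 2, the split that the Y-linked genes also show, and its change was 0.26 (SE 0.12, adjusted p of 0.357). Lig1, the ligase that seals the fragments, read 10.90, 10.85 and 10.93 in WT and 11.05, 10.87 and 10.81 in the Lxn-/- arrays, which overlap. Its change of 0.02 (SE 0.09) was -0.08 after quantile normalization.

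Deoxynucleotide synthesis had a median change of 0.14 over 3 genes (0.05 after quantile normalization, with 2 of 3 higher). Rrm2, the member with the smallest p, encodes the small subunit of ribonucleotide reductase, known for its rise in S phase. It read 10.39, 10.29 and 10.46 in WT and 10.99, 10.62 and 10.69 in the Lxn-/- arrays. The change of 0.39 (SE 0.12, adjusted p of 0.340) is 1.31-fold, without overlap, and was 0.24 for Lxn-/- array 2 alone. Rrm1, the large subunit of the same enzyme, differed by 0.14 (SE 0.10) with overlap. Tyms, thymidylate synthase, read 10.06, 10.00 and 10.14 in WT and 10.28, 10.05 and 10.11 in the Lxn-/- arrays (change 0.08, SE 0.09), where only array 1 lay above WT.

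**Figure D4:**
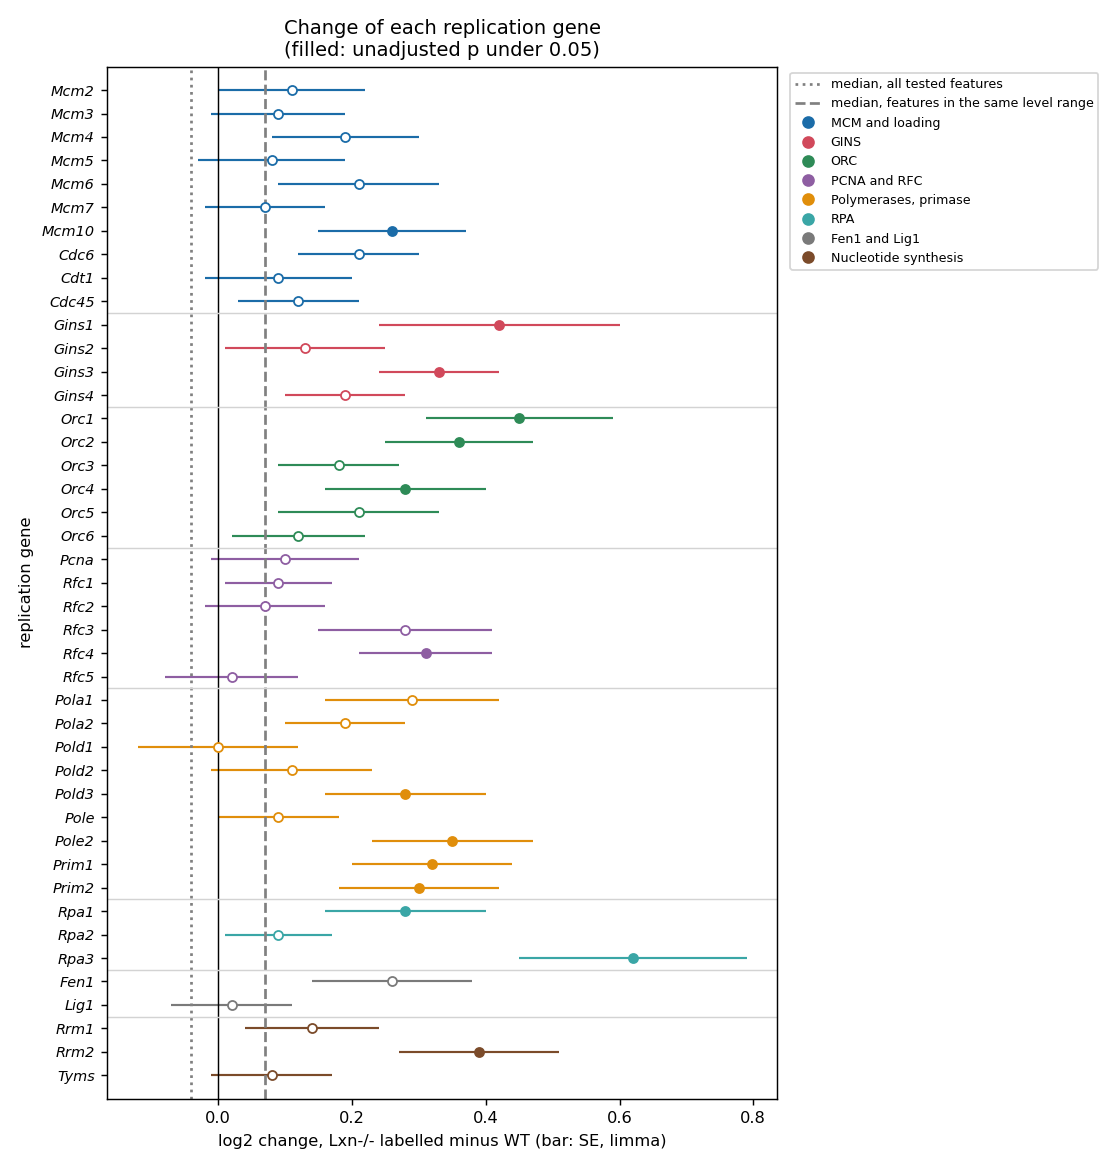
Log2 change (arrays labelled Lxn-/- minus WT) of each of the 43 replication genes with its SE from limma as a bar, coloured by complex and filled where the unadjusted p was under 0.05 (14 genes; none passed after adjustment). The dotted line is the median of all tested features (-0.04), the dashed line that of features in the same level range (0.07), and quantile normalization lowers 8 of the 43 points to below 0.

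In Lxn-/- array 1 the medians of the 8 groups, relative to WT, lay between 0.20 (PCNA and RFC) and 0.39 (RPA). In arrays 2 and 3 GINS, ORC, the polymerases and RPA lay between 0.17 and 0.28. Features in the level range of all 43 genes, not of these groups alone, were at 0.09. The WT mean includes WT array 2, at -0.07 for GINS and ORC and -0.23 for the polymerases and RPA. With WT array 2 and Lxn-/- array 1 both left out, their median changes were 0.15 (GINS), 0.20 (ORC), 0.12 (polymerases) and 0.11 (RPA). The MCM group was at 0.09 and 0.07, PCNA and RFC at 0.07 and 0.08, Fen1 with Lig1 at -0.01 and 0.13, and nucleotide synthesis at 0.14 and 0.05. These groups hold 2 to 10 genes, and differences between them were not tested.

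**Figure D5:**
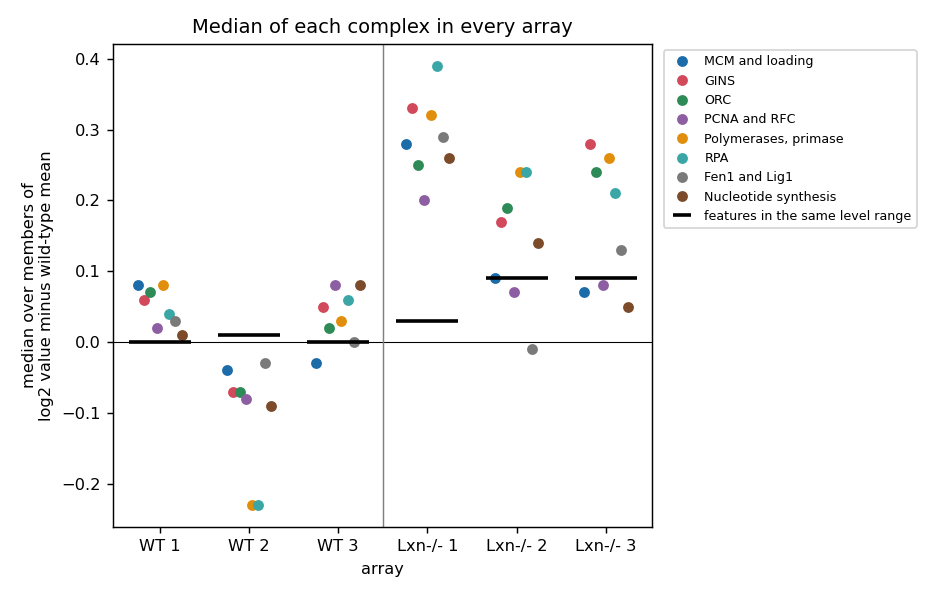
Median over the genes of each complex of the log2 value minus the WT mean, in each array, beside the median of all features in the level range of the replication genes (black bars). In Lxn-/- array 1 all 8 groups lie at 0.20 to 0.39, above the bar at 0.03. In arrays 2 and 3 the MCM group and PCNA with RFC lie at 0.07 to 0.09, near the bar at 0.09.

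Other replication factors, listed by role, were also mostly higher. All 38 had a higher mean in the deposited values (median 0.16) and 31 after quantile normalization (median 0.10), 9 (23.7%) were at an unadjusted p under 0.05, all higher, 17 did not overlap, and none passed after adjustment in limma. In the level range of the replication genes, 8.75% of features were higher at that mark and 16.0% did not overlap. The largest of those named by the rule was Nasp, a histone chaperone gene, at 0.49 (SE 0.15), with 9.36 and 9.44 in Lxn-/- arrays 1 and 3 and 8.96 in array 2 against 8.77 ± 0.20 in WT (SD, n = 3). Dbf4, which activates the kinase that fires the MCM ring, had a change of 0.37 (SE 0.11), Asf1a, another histone chaperone gene, 0.27 (SE 0.09) and Tipin, of the fork protection complex, 0.41 (SE 0.16). The groups did not overlap in any of these 4. Pold4, a small subunit of polymerase delta, had the lowest change at 0.02 (SE 0.16). E2F cores were found in the promoters of 9 of 30 matched genes.

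Nucleotide synthesis outside the list was higher in 31 of 32 measured genes in the deposited values at a median of 0.17 (26 at 0.08 after quantile normalization), with 2 (6.25%) at an unadjusted p under 0.05, close to the 8.75% of features of that level range. Ctps, CTP synthase, read 8.65 ± 0.17 in WT and 9.07 ± 0.15 in the Lxn-/- arrays (change 0.42, SE 0.12), and Dut, the dUTPase that keeps uracil out of DNA, had a change of 0.32 (SE 0.11). Neither passed (adjusted p of 0.340 each in limma), nor did Nme1, a nucleoside diphosphate kinase gene (0.32, SE 0.14), or Gmps, GMP synthetase (0.24, SE 0.11). Samhd1, which breaks deoxynucleotides down, was the single gene with a lower mean (-0.03, SE 0.13). The median relative to WT was 0.39 in Lxn-/- array 1 and 0.09 and 0.06 in arrays 2 and 3. Here 2 of 29 matched promoters (6.9%) held an E2F core.

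Markers of cycling did not separate the groups as a whole. Mki67, the proliferation antigen, read 12.16, 11.90 and 12.00 in WT and 12.02, 12.21 and 12.07 in the Lxn-/- arrays, which overlap (change 0.08, SE 0.10, adjusted p of 0.700). Of 9 measured mitotic genes 8 were higher at a median of 0.12 (5 after quantile normalization, at 0.03). Of 12 regulators of the G1/S step 11 were higher at a median of 0.16 (10 after quantile normalization, at 0.07). In the level range of the replication genes 69.8% of features were higher, at a median of 0.07. At an unadjusted p under 0.05 in limma there was 1 mitotic gene (11.1%) and 1 G1/S regulator (8.33%), both higher. Among features of that level range 8.75% were higher at that mark. The markers of smallest p were Ccne2, cyclin E2, at 0.42 (SE 0.17), Bub1, a spindle checkpoint kinase gene, at 0.26 (SE 0.11) and Cdc25a, a phosphatase gene of S-phase entry, at 0.21 (SE 0.10). Of 9 measured genes listed for G0 or low cycling 6 were higher (median 0.09, and 5 at 0.02 after quantile normalization). That list also holds the cyclin D1 gene Ccnd1, which is not a gene of quiescence alone and was among the 6 (0.15, SE 0.12). The lowest was the stem cell factor gene Hlf at -0.54 (SE 0.25), with 10.41 in Lxn-/- array 1, 11.63 and 11.16 in arrays 2 and 3 and 11.61 ± 0.10 in WT. In Lxn-/- array 1, where the replication genes were highest, the median relative to WT was 0.25 for the G1/S regulators, 0.12 for the mitotic genes and -0.14 for the genes of low cycling. In arrays 2 and 3 it was 0.18 and 0.10 for the G1/S regulators and 0.17 and 0.05 for the mitotic genes. The genes of low cycling were at 0.02 and 0.13 there. Unlike the replication genes, the mitotic genes were thus highest in array 2.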

How the data were processed

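Values came as 1 table, deposited by the authors on a log2 scale, from Affymetrix whole-transcript mouse arrays, and made by RMA per the series text. Per the submitters' processing notes Partek 6.0 was used, and the scale was judged from the values themselves (2.65 to 14.78). No source used here states RMA settings, scan dates or a build. Gene names came from the platform's annotation, with 1 symbol for 21789 of 35557 features, several for 1621 and none for 12147, and symbols were updated through Entrez identifiers (21698 matched GRCm38.p6). The 23410 features with a symbol were tested under R 4.3.3 by limma 3.58.1 (a linear fit moderated by eBayes, two-sided, Benjamini-Hochberg adjustment, threshold 0.05), a fit checked on simulated data. Each array is a separate pool, so p-values measure the spread between pools, and all 6 arrays were kept (at most 14 identical values between any pair).

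The members, lists and most alternatives were chosen with earlier results of these data known. Values of all arrays were to be given for the members of smallest and largest p in each complex and for every member with an unadjusted p under 0.05. From each other list the 4 genes of smallest p and the one of lowest change were to be named. The alternatives tried were a replicate block, each array left out, Lxn-/- array 2 alone, 3 other scalings, a filter on dim features, other eBayes settings, array weights, all rows, and the mean of a gene's features. Leaving out WT array 2 with Lxn-/- array 1 was added after seeing the data. Counts of genes with an unadjusted p under 0.05 are descriptions and not calls.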

Additional observations from a re-analysis of the deposited data

How the results depend on the processing

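No member passed the adjusted threshold of 0.05 under any of the 17 alternatives, and 29 of the 43 members were higher in all 17. The other 14 were lower in at least 1, in 46 of 731 values of a member under an alternative. Same-numbered arrays deviated from their group means with correlations of 0.0757, -0.00763 and -0.00565. Arrays of unlike number had correlations from -0.051 to 0.0518. With 3 arrays per group these values cannot settle whether the replicate numbers pair the arrays. With the replicate number as a block, 1 feature of 23410 passed, 17 members were at an unadjusted p under 0.05, as were 5 other nucleotide synthesis genes and 4 cell cycle markers. In that fit 1189 of all features were higher at that mark. With each array left out in turn, the features called ran from 0 to 145 (145 without Lxn-/- array 2), members at an unadjusted p under 0.05 from 7 to 16, their median from 0.14 to 0.21, members higher from 36 to 43, other replication factors from 2 to 9, other nucleotide genes from 1 to 4 and cycle markers from 0 to 4.

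Counts at an unadjusted p under 0.05 are given next in the order members, other replication factors, other nucleotide genes and cycle markers, against 14, 9, 2 and 2. For Lxn-/- array 2 alone the group holds 1 array, so no count is given. The members' median change was 0.12 there, against -0.02 for all features. The counts were 4, 2, 1 and 0 with WT array 2 and Lxn-/- array 1 both left out (members' median 0.09). They were 6, 4, 1 and 1 after quantile normalization, and 6, 5, 1 and 1 after cyclic loess. Centring arrays on their medians gave 21, 15, 7 and 5, and moved the higher features among all those at that mark from 1185 of 3346 to 2190 of 3129 (863 of 1812 by quantile normalization, 951 of 1818 by cyclic loess and 1000 of 1356 with only features above the median level). Array weights gave 9 members and 0 cycle markers, eBayes with trend and robust 4 other nucleotide genes, and keeping unnamed features 0 cycle markers. With array weights 1515 of all 23410 features were higher at that mark. The causes were not tested.

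These members were lower, each with its change. With arrays left out singly, Mcm2 ran up to 0.17, Mcm5 to 0.18, Cdt1 to 0.16, Rfc5 to 0.1, Pold1 to 0.1 and Lig1 to 0.07, all without Lxn-/- array 3. Without Lxn-/- array 1: Mcm2 -0.01, Mcm5 -0.01, Cdt1 -0.02, Rfc5 -0.04, Pold1 -0.13, Pold2 -0.01 and Lig1 -0.05. Without WT array 1 Pold1 was -0.00054, without WT array 3 it was -0.04, and without WT array 2 Lig1 was -0.0046. For Lxn-/- array 2 alone: Mcm2 -0.0035, Mcm3 -0.01, Gins2 -0.09, Orc6 -0.04, Pcna -0.02, Rfc2 -0.01, Pold1 -0.06, Lig1 -0.02 and Tyms -0.02. With WT array 2 and Lxn-/- array 1 left out: Mcm3 -0.03, Mcm5 -0.01, Cdt1 -0.01, Gins2 -0.01, Pcna -0.04, Rfc5 -0.04, Pold1 -0.09, Pold2 -0.0046, Lig1 -0.07 and Tyms -0.02. After quantile normalization: Mcm5 -0.0041, Cdt1 -0.01, Rfc2 -0.02, Rfc5 -0.06, Pold1 -0.1, Rpa2 -0.00012, Lig1 -0.08 and Tyms -0.0035. After cyclic loess: Rfc2 -0.02, Rfc5 -0.05, Pold1 -0.09, Rpa2 -0.01, Lig1 -0.07 and Tyms -0.01. With array weights: Rfc5 -0.02, Pold1 -0.06 and Lig1 -0.04.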
